A study of Mus musculus with 8 samples.

Results

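The tumor necrosis factor (TNF) family was followed across 8 expression arrays of spleen cells from leukemic mice. Members were taken by name: probe sets with 1 gene symbol that begins with Tnfrsf or Tnfsf, or that is Tnf, Lta, Ltb, Ltbr, Fas, Fasl, Cd40, Cd40lg, Cd27 or Cd70, without Tnfrsf13c and Tnfrsf17. This gave 35 genes with 57 probe sets, of 18193 genes with a probe set of their own. They comprise 13 ligands, 5 death domain receptors, 3 decoy or soluble receptors, 13 receptors that bind TRAF adaptors, and Tnfsf13os, an antisense transcript that carries the prefix and encodes no ligand. Tnfsf12 and Tnfsf13 were seen only by probe sets with several genes and were not analysed here.

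The mice carried either of 2 forms of CBFb-SMMHC, the leukemia fusion of the core-binding factor subunit CBFb with smooth muscle myosin heavy chain. Full-length mice carried CBFb-SMMHC, had been given ENU, a chemical mutagen, and were leukemic when sampled 2 months later. Truncated mice expressed CBFb-SMMHCd179-221, a form named in the series title as impaired in high-affinity RUNX1 binding, and were sampled at an age of 3 weeks, with no ENU listed. The sample labels name both genotypes as chimeras and the series text calls the full-length mice knock-in. ENU, age and genotype go together and cannot be told apart. There were 2 animals of each genotype, of which animal 1 had 1 array and animal 2 had 3. No wild-type or non-leukemic spleen was among the samples.

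TNF family ligands are mostly trimeric membrane proteins, and several are cut from the cell surface by proteases. They bind receptors that either recruit death domain adaptors, which can lead to caspase activation, or recruit TRAF proteins, which lead to NF-kB and MAP kinase signalling. In the spleen the family is known for shaping lymphoid tissue through lymphotoxin, for the survival of B cells, for costimulation of T cells and for inflammatory signalling by macrophages and granulocytes.

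The arrays paired across animals in a way that bears on every value below. Over all probe sets, array 1 of full-length animal 2 had a Pearson r of 0.9894 with the array of animal 1, but 0.9541 and 0.9535 with arrays 2 and 3 of its own animal. Those arrays 2 and 3 had r = 0.9971 with each other and 0.9729 with array 2 of truncated animal 2. In the truncated mice array 1 of animal 2 had r = 0.9867 with animal 1 and 0.9761 and 0.9759 with arrays 2 and 3. Whether an animal's arrays came from separate extractions is not stated in the labels. For most tested members and the named pathway genes the difference is therefore also given within the arrays numbered 1, which are 1 per animal, and within arrays 2 and 3, which come from animal 2 of each genotype. Median levels of the arrays lay between 4.71 and 4.78 (log2).

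Values are log2 expression, and those of single arrays are listed in the order animal 1, then arrays 1, 2 and 3 of animal 2. Means ± SD are over the 2 animals of a genotype after averaging each animal's arrays, and differences are truncated minus full-length. The animals limit the precision to n = 2 per genotype, and p-values measure only the spread between these animals. A log2 value belongs to its own probe set, so levels are not compared between genes. In bulk samples, fewer cells of a type and less RNA per cell cannot be told apart.

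Of the 35 members, 18 were bright enough to be tested and 17 lay below the intensity filter. With limma over all 11417 genes tested, 0 of the 18 members had an adjusted p under 0.05, and the share called over all genes was 0% as well. At an unadjusted p under 0.05, 8 members had higher and 0 had lower values in truncated mice, beside 1006 higher and 604 lower among all genes tested. Of all 35 members, 27 had a higher and 8 a lower mean in truncated mice, with a median difference of 0.20. Over all 18193 genes 10049 were higher and 8144 lower, with a median difference of 0.03. In 6 of the 18 tested members all 4 truncated arrays lay above all 4 full-length arrays, which was so for 10.3% of all genes tested. In 0 of the 18 did they all lie below, beside 8.74% of all genes tested. Truncated arrays lay above within the arrays numbered 1 and again within arrays 2 and 3 in 8 of the 18, beside 14.6% of all genes tested, and below in both sets in 0, beside 15.0%. The tested members were kept by their brightness, so these shares are a description of them and not of the whole family. Fas is among the members counted as higher in each of these ways. It passed the filter only through the truncated animals, in which it was higher, so its place in these counts is no support for a difference.

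**Figure D1:**
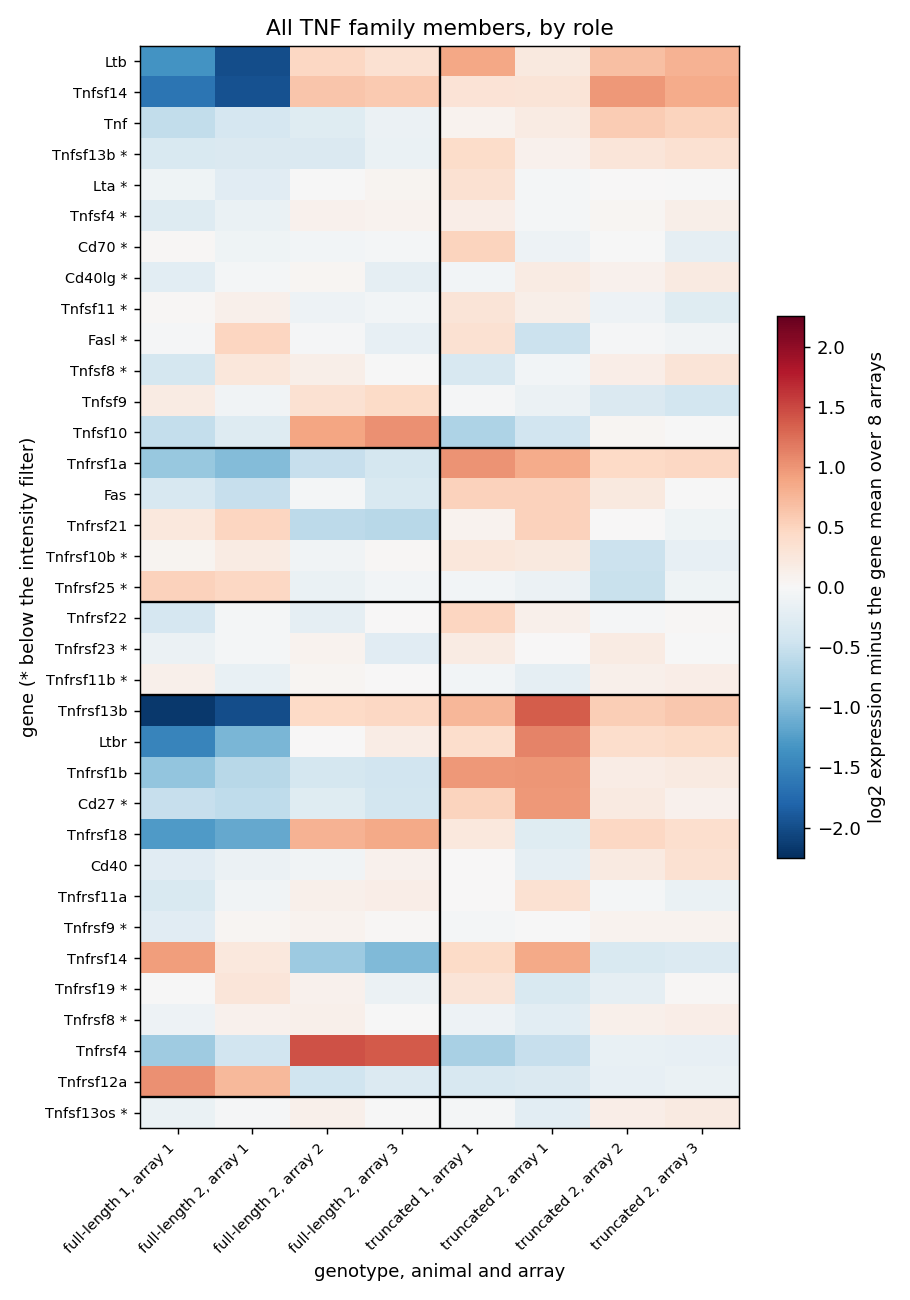
Colour shows the log2 expression of each of the 35 members (rows, in blocks of ligands, death domain receptors, decoy and soluble receptors, TRAF-binding receptors and the antisense transcript) minus its mean over the 8 arrays (columns). Stars mark the 17 members below the intensity filter. Ltb, Tnfsf14, Tnfrsf13b, Ltbr and Tnfrsf18 are darkest blue in the arrays numbered 1 of the full-length mice, while Tnf and Tnfrsf1a are blue in all 4 full-length arrays.

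The upstream sequences of 4 members on which the account turns are shown first: the ligands Tnf and Ltb and the receptors Tnfrsf1a and Tnfrsf13b. Each is the 250 bases before the RefSeq start of the gene (GRCm38.p6), read 5′ to 3′ on the gene's strand. Tnf lies on the minus strand at chr17:35202008-35202257 and Ltb on the plus strand at chr17:35194257-35194506. Tnfrsf1a lies on the plus strand at chr6:125349473-125349722 and Tnfrsf13b on the plus strand at chr11:61126505-61126754. Capitals mark a match to a TATA box (TATAAA) or to an NF-kB pattern (GGNNTTTCC), each searched on both strands, so that a match on the opposite strand appears as its reverse complement.
Tnf: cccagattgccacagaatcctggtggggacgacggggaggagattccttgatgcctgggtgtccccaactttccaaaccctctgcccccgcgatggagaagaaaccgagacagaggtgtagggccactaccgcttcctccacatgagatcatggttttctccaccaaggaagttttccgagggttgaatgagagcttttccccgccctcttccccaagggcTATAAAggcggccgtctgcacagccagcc
Ltb: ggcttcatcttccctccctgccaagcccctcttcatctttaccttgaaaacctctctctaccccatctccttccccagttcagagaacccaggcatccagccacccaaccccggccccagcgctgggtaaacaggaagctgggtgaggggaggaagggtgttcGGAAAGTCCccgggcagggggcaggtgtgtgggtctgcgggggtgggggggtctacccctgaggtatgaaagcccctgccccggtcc
Tnfrsf1a: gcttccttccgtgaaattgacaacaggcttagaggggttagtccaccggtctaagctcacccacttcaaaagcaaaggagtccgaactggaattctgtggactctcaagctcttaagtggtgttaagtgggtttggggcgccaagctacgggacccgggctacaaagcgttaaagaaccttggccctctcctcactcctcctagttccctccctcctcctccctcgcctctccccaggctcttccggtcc
Tnfrsf13b: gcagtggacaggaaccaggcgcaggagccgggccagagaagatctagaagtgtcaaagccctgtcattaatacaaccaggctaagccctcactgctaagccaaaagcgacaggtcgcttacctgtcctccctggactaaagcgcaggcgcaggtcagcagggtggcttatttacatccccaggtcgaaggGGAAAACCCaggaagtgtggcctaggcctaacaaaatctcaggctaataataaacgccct

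Tnf had a TATA box at 29 to 24 bases before its start. Ltb had the NF-kB pattern at 87 to 79 bases and Tnfrsf13b at 60 to 52 bases before the start, both on the opposite strand. The window of Tnfrsf1a held neither. Of the 35 members, 26 had a RefSeq window. The NF-kB pattern was in 3 of these (Ltb, Tnfrsf13b and Tnfrsf25), beside 4.84% of 27025 promoter windows, and the TATA box in 4 (Tnf, Lta, Tnfsf11 and Tnfrsf23), beside 13%. The RUNX core TGTGGT, the motif of the factor that CBFb partners, was in 1 member window (Tnfrsf25) and in 14.2% of all windows. The PU.1 core GAGGAAGT was in 0 member windows and in 2.44% of all. The searched motifs do not overlap within these windows, and a match or its absence describes only these letters.

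Among the ligands, Tnf encodes the founding cytokine of the family. It lay at 6.35, 6.51, 6.62 and 6.77 in full-length arrays and at 6.98, 7.07, 7.47 and 7.39 in truncated arrays. Every truncated array was above every full-length array, and the gap had a similar size in both sets of arrays, with 0.60 in the arrays numbered 1 and 0.73 in arrays 2 and 3. The genotype means were 6.49 ± 0.20 and 7.14 ± 0.23 (SD, n = 2 animals), a difference of 0.65 with an SE of 0.25, which is 1.57-fold (limma adjusted p = 0.339). With animal and array number as a block on the 8 arrays the difference was 0.66 and passed (limma adjusted p = 0.0263), in a fit that called 8.29% of all genes tested. That fit treats arrays as the unit, and with animal means and the animal number as a block the adjusted p was 0.201.

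Ltb encodes lymphotoxin beta, which anchors lymphotoxin alpha at the cell surface. Its full-length arrays lay at 6.05, 5.40, 7.85 and 7.72 and its truncated arrays at 8.25, 7.61, 8.06 and 8.17. The full-length arrays numbered 1 were far below the other arrays, and full-length arrays 2 and 3 reached into the truncated range. The means of 6.52 ± 0.67 and 8.10 ± 0.21 differed by 1.58 with an SE of 0.37, or 2.98-fold (limma adjusted p = 0.166). Within the arrays numbered 1 the difference was 2.21, and within arrays 2 and 3 it was 0.33. Without array 2 or array 3 of full-length animal 2, Ltb passed the test at 1.79 (limma adjusted p = 0.0360) and 1.76 (adjusted p = 0.0320). Without array 1 of that animal it was at 1.18 (limma adjusted p = 0.750).

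Tnfsf14 encodes LIGHT, a ligand of the lymphotoxin beta receptor and of the herpesvirus entry mediator. It had the same layout, with full-length arrays at 4.09, 3.77, 6.36 and 6.32 and truncated arrays at 6.04, 6.03, 6.71 and 6.57. The full-length arrays numbered 1 lay more than 2 log2 units below the other full-length arrays. The means were 4.79 ± 0.99 and 6.24 ± 0.28, a difference of 1.45 with an SE of 0.50 (limma adjusted p = 0.289). It was 2.11 within the arrays numbered 1 and 0.30 within arrays 2 and 3. A second, dimmer probe set of Tnfsf14 differed by 0.68 in all, by 1.13 in the former and by -0.27 in the latter, so the 2 probe sets disagreed in direction within arrays 2 and 3.

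The remaining tested ligands had lower means in truncated mice. Tnfsf10, which encodes TRAIL, the ligand of the death receptor Tnfrsf10b, lay at 4.60, 4.84, 6.02 and 6.17 in full-length arrays and at 4.45, 4.70, 5.17 and 5.14 in truncated arrays. Full-length arrays 2 and 3 stood above all others, and the difference of the means was -0.41 with an SE of 0.43 (limma adjusted p = 0.771). It was -0.15 within the arrays numbered 1 and -0.94 within arrays 2 and 3, while a second probe set differed by 0.42 and -1.18 in these sets (-0.07 in all) and the third by -0.29 and -0.46 (-0.45 in all). Tnfsf9, a costimulatory ligand of T cells, was at 4.87 ± 0.03 and 4.49 ± 0.18, a difference of -0.37 with an SE of 0.23 (limma adjusted p = 0.563), with -0.14 within the arrays numbered 1 and -0.75 within arrays 2 and 3. Tnfsf9 passed the filter only through the full-length animals.

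The other 8 ligands lay below the filter and were not tested. Tnfsf13b, which encodes the B cell survival factor BAFF, was the only ligand among them whose arrays did not overlap, at 3.73, 3.74, 3.74 and 3.92 in full-length and at 4.47, 4.16, 4.34 and 4.40 in truncated arrays. Its difference of 0.62 was 0.58 within the arrays numbered 1 and 0.54 within arrays 2 and 3. The other, dimmer probe sets of Tnfsf13b did overlap between genotypes, with differences of 0.285 and 0.005. The former was at 0.193 and 0.081 in these sets of arrays, and the latter at 0.060 and -0.253. Lta, Tnfsf4, Cd70, Cd40lg, Tnfsf11, Fasl and Tnfsf8 differed by between 0.02 (Tnfsf8) and 0.24 (Lta and Tnfsf4). These include the T cell ligands Cd40lg and Fasl and the osteoclast factor Tnfsf11. The probe sets of Fasl disagreed in direction, with 0.035 for the one used and -0.589 for a second, dimmer one. The second was at -0.718 within the arrays numbered 1 and -0.264 within arrays 2 and 3. The antisense transcript Tnfsf13os, also below the filter, differed by 0.06.

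Among the death domain receptors, Tnfrsf1a encodes the broadly expressed TNF receptor that carries a death domain. Its full-length arrays lay at 7.47, 7.35, 7.80 and 7.93 and its truncated arrays at 9.33, 9.17, 8.77 and 8.79. The groups were wide apart, and every truncated array was above every full-length array. The means of 7.58 ± 0.15 and 9.12 ± 0.30 differed by 1.54 with an SE of 0.26, or 2.90-fold (limma adjusted p = 0.0897), the smallest adjusted p of the 18 tested members. The difference was 1.84 within the arrays numbered 1 and 0.92 within arrays 2 and 3. It passed with animal and array number as a block (1.38, limma adjusted p = 0.0300), with the animal as a random block (1.44, adjusted p = 0.0244), and without array 2 (1.56, adjusted p = 0.0386) or array 3 (1.59, adjusted p = 0.0290) of full-length animal 2. Without array 1 of that animal it was 1.45 (limma adjusted p = 0.399). With animal means and the animal number as a block it was 1.54 (limma adjusted p = 0.0575). Of the 11417 genes tested, the fit with animal and array number as a block called 8.29%, and the random block 264 higher and 81 lower. The fit without array 2 called 297 higher and 41 lower, and that without array 3 called 380 higher and 48 lower.

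Fas encodes the receptor of Fas ligand and starts caspase signalling through its death domain. It lay at 4.24, 4.08, 4.55 and 4.26 in full-length and at 5.11, 5.12, 4.81 and 4.59 in truncated arrays. The groups did not overlap, but array 2 of the full-length and array 3 of the truncated animal 2 were almost level. The means of 4.27 ± 0.04 and 4.97 ± 0.19 differed by 0.71 with an SE of 0.23, or 1.63-fold (limma adjusted p = 0.269). Within the arrays numbered 1 the difference was 0.95, and within arrays 2 and 3 it was 0.29. Fas passed the filter only through the truncated animals.

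Tnfrsf21, a death domain receptor also known as DR6, was at 7.11 ± 0.34 and 7.22 ± 0.05, a difference of 0.11 (limma adjusted p = 0.914). It was -0.07 within the arrays numbered 1 and 0.55 within arrays 2 and 3. The remaining death domain receptors lay below the filter. Tnfrsf25, a receptor known from T cells, was at 4.35 ± 0.30 and 3.90 ± 0.13, the lowest difference among the members below the filter at -0.45, and Tnfrsf10b, the mouse TRAIL receptor, differed by -0.01. The probe sets of Tnfrsf21 and Tnfrsf10b used here are of a kind that can match related sequences.

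The decoy receptors bind ligand without a signalling tail. Tnfrsf22 was the only tested member of this group, at 4.94 ± 0.21 and 5.43 ± 0.31, a difference of 0.49 (limma adjusted p = 0.517), with 0.51 within the arrays numbered 1 and 0.09 within arrays 2 and 3. Its neighbour and close relative Tnfrsf23 differed by 0.23, and 1 probe set that names both genes was left out. Tnfrsf11b, which encodes the soluble receptor osteoprotegerin, differed by -0.06.

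**Figure D2:**
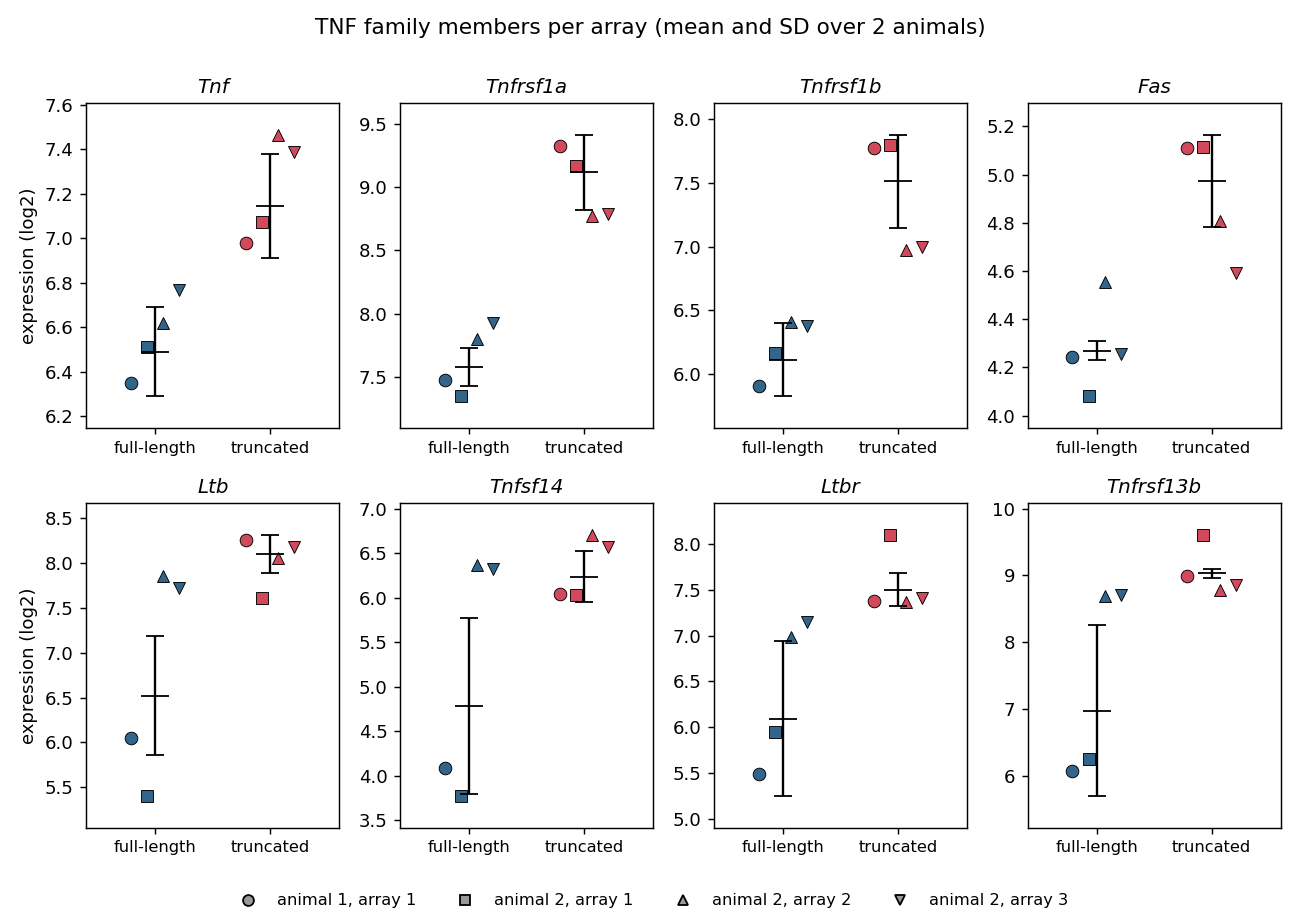
Log2 expression of the 8 tested members whose arrays did not overlap between genotypes or whose means differed by at least 1 log2 unit. Symbols are single arrays (circle for animal 1, square, triangle and inverted triangle for arrays 1, 2 and 3 of animal 2), blue for full-length and red for truncated mice, and black bars are the mean and SD over 2 animals. Axes differ between genes. In Tnf, Tnfrsf1a, Tnfrsf1b and Fas all 4 full-length arrays lie below the truncated arrays, whereas in Ltb, Tnfsf14 and Tnfrsf13b the full-length circle and square lie far below the triangles.

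Of the TRAF-binding receptors, Tnfrsf1b encodes the other TNF receptor, which lacks a death domain and is known from immune cells. Its full-length arrays lay at 5.91, 6.17, 6.41 and 6.37 and its truncated arrays at 7.77, 7.79, 6.973 and 6.999. All truncated arrays were above all full-length arrays, and the arrays numbered 1 of the truncated mice were highest. The means of 6.12 ± 0.29 and 7.51 ± 0.36 differed by 1.40 with an SE of 0.29, or 2.63-fold (limma adjusted p = 0.133). The difference was 1.74 within the arrays numbered 1 and 0.59 within arrays 2 and 3. A second, dimmer probe set of Tnfrsf1b differed by 0.61, with 0.95 in the former arrays and 0.03 in the latter.

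Ltbr encodes the receptor of membrane lymphotoxin and of LIGHT, known for the non-canonical NF-kB pathway. It lay at 5.49, 5.95, 6.98 and 7.15 in full-length arrays and at 7.38, 8.10, 7.37 and 7.41 in truncated arrays. Array 1 of truncated animal 2 stood above the other truncated arrays, and full-length arrays 2 and 3 came close to the lowest of them. The means of 6.093 ± 0.849 and 7.502 ± 0.177 differed by 1.41 with an SE of 0.43, or 2.66-fold (limma adjusted p = 0.251), with 2.02 within the arrays numbered 1 and 0.33 within arrays 2 and 3.

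Tnfrsf13b encodes TACI, a receptor of BAFF and APRIL best known from B cells. It had the largest difference of the 18 tested members, with full-length arrays at 6.06, 6.25, 8.68 and 8.70 and truncated arrays at 8.98, 9.61, 8.79 and 8.85. Full-length arrays 2 and 3 came close to the truncated arrays without reaching them. The means of 6.97 ± 1.28 and 9.03 ± 0.07 differed by 2.06 with an SE of 0.60, or 4.17-fold (limma adjusted p = 0.229). The difference was 3.14 within the arrays numbered 1 and 0.12 within arrays 2 and 3. Beside this, the mean of the 8 measured B cell markers ranged from 4.45 to 4.58 in full-length and from 4.68 to 5.47 in truncated arrays, and 3 of the 8 were below the median of all probe sets on every array. Of the brighter B cell markers, Cd79b lay at 5.27, 4.63, 5.84 and 6.10 in full-length and 6.49, 6.61, 7.13 and 7.16 in truncated arrays. Bank1 lay at 4.78, 4.91, 5.42 and 5.24 in full-length and 6.08, 6.38, 6.35 and 6.47 in truncated arrays. For both, full-length arrays 2 and 3 lay between the full-length arrays numbered 1 and the truncated arrays. Cd79a, the other B cell marker above the filter, did not have this order, at 5.24, 4.65, 4.66 and 4.38 in full-length and 5.66, 4.91, 5.83 and 5.996 in truncated arrays. Ms4a1, a B cell marker below the filter, lay at 4.73, 4.96, 4.27 and 4.12 in full-length and 3.53, 3.925, 6.41 and 6.31 in truncated arrays. Within the truncated mice the B cell marker mean was higher in arrays 2 and 3, whereas Tnfrsf13b was higher in the arrays numbered 1. The part of B cells in the Tnfrsf13b values was not tested.

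A group of receptors followed the division of the full-length arrays more than the genotype. Tnfrsf18 encodes GITR and Tnfrsf4 encodes OX40, both costimulatory receptors known from T cells, and the 2 genes are direct neighbours on chromosome 4. Tnfrsf18 lay at 5.47, 5.58, 7.52 and 7.59 in full-length and at 6.98, 6.47, 7.21 and 7.13 in truncated arrays. Tnfrsf4 lay at 5.60, 5.97, 7.84 and 7.79 in full-length and at 5.66, 5.87, 6.23 and 6.22 in truncated arrays. Full-length arrays 2 and 3 were the highest arrays for both genes. Tnfrsf18 differed by 0.78 between the genotypes (limma adjusted p = 0.588), with 1.200 within the arrays numbered 1 and -0.387 within arrays 2 and 3. Tnfrsf4 differed by -0.51 (limma adjusted p = 0.779), with -0.02 and -1.58.

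Tnfrsf12a encodes Fn14, the receptor of TWEAK, and showed the opposite order. It lay at 7.38, 7.08, 5.90 and 6.05 in full-length and at 5.999, 6.037, 6.173 and 6.210 in truncated arrays. The full-length arrays numbered 1 stood above the other arrays, which were all alike. The means of 6.86 ± 0.73 and 6.07 ± 0.10 differed by -0.79 with an SE of 0.39 (limma adjusted p = 0.457), with -1.21 within the arrays numbered 1 and 0.22 within arrays 2 and 3. A second probe set of Tnfrsf12a differed by -1.498 and 0.230 in these sets. Tnfrsf14, the herpesvirus entry mediator, was at 5.72 ± 1.04 and 5.75 ± 0.25, with a difference of 0.05 within the arrays numbered 1 and 0.57 within arrays 2 and 3. In both genotypes its arrays 2 and 3 were below the arrays numbered 1, with a difference between these sets of -1.497 in full-length and -0.98 in truncated mice.

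**Figure D3:**
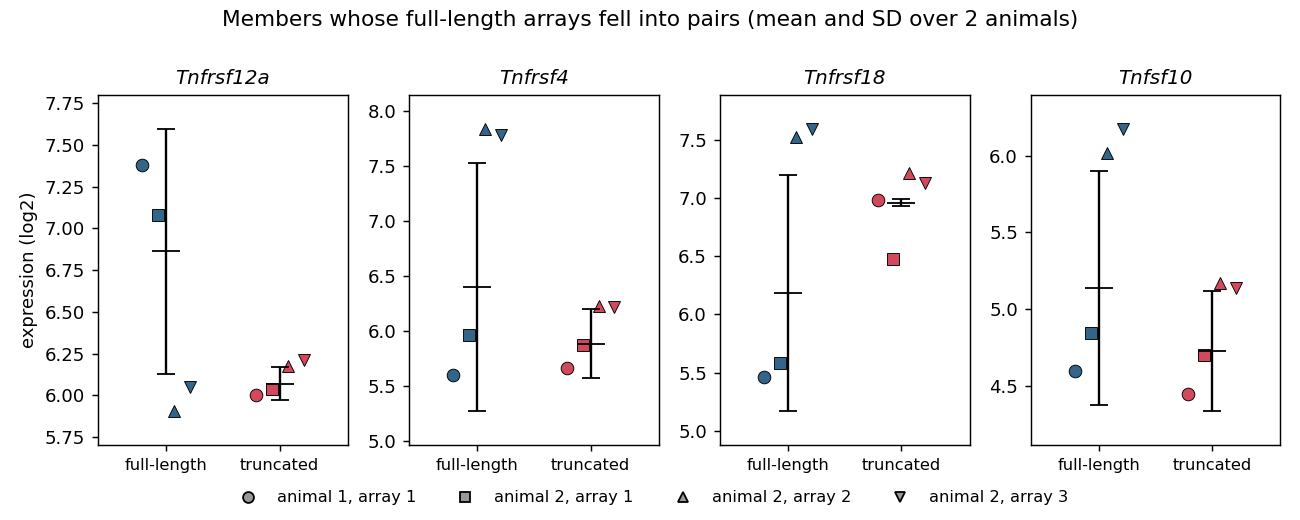
Log2 expression of Tnfrsf12a, Tnfrsf4, Tnfrsf18 and Tnfsf10, with symbols, colours and bars for single arrays, genotypes and the mean and SD over 2 animals. In full-length mice the circle and square (arrays numbered 1) lie apart from the triangles (arrays 2 and 3), by 1.25 in Tnfrsf12a (higher) and by 2.03 in both Tnfrsf4 and Tnfrsf18 (lower), while truncated arrays are closer together.

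Of the other TRAF-binding receptors, Cd40, the receptor for T cell help on B cells and macrophages, was at 4.89 ± 0.15 and 5.10 ± 0.08 (difference 0.21, limma adjusted p = 0.781), with 0.10 within the arrays numbered 1 and 0.26 within arrays 2 and 3. Tnfrsf11a, the receptor RANK, differed by 0.17 (limma adjusted p = 0.844), with 0.38 and -0.23 in these sets. A second, dimmer probe set of Tnfrsf11a was at 0.34 and 0.02. Cd27, a costimulatory receptor of lymphocytes, lay below the filter and was not tested, but its arrays did not overlap. It was at 3.01, 2.95, 3.25 and 3.12 in full-length and at 4.03, 4.49, 3.73 and 3.62 in truncated arrays, a difference of 0.93 that was 1.28 within the arrays numbered 1 and 0.49 within arrays 2 and 3. Tnfrsf8, Tnfrsf9 and Tnfrsf19, also below the filter, differed by between -0.03 (Tnfrsf8) and 0.10 (Tnfrsf9).

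Within the full-length mice the step between arrays was large for many of the tested members, which were kept by their brightness. Arrays 2 and 3 of animal 2 lay at least 1 log2 unit above the mean of the arrays numbered 1 in 7 of the 18 tested members and at least 1 below in 2, together 50%, beside 15.5% of all genes tested. The 7 were Ltb, Tnfsf14, Tnfsf10, Ltbr, Tnfrsf13b, Tnfrsf4 and Tnfrsf18, and the 2 were Tnfrsf12a and Tnfrsf14. Among the members below the filter the largest such step was -0.595, in Tnfrsf25, so the share does not describe the whole family. In the truncated mice 0 of the 18 members had such a step, beside 5.81% of all genes tested. For the arrays numbered 1 alone, 10 of the 18 members passed the test, beside 26.4% of all genes tested in the same fit. Among the 10 is Fas, which passed the filter only through the truncated animals, so its place there is no support for a difference. Tnfrsf12a, also among them, was lower in truncated mice. Without full-length animal 2 the full-length side is 1 array, numbered 1, and the truncated animals alone give the spread, so only differences are given. They were 2.05 for Ltb, 2.01 for Ltbr, 2.97 for Tnfrsf13b, 1.49 for Tnfrsf18 and 2.15 for Tnfsf14. Without full-length animal 1, which leaves animal 2 alone, these members differed by 1.11, 0.81, 1.15, 0.06 and 0.75 in the same order. The fit on the arrays numbered 1 takes 1 array per animal, and the arrays it leaves out are those in which Ltb, Tnfsf14, Ltbr and Tnfrsf13b differed by 0.33 or less.

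**Figure D4:**
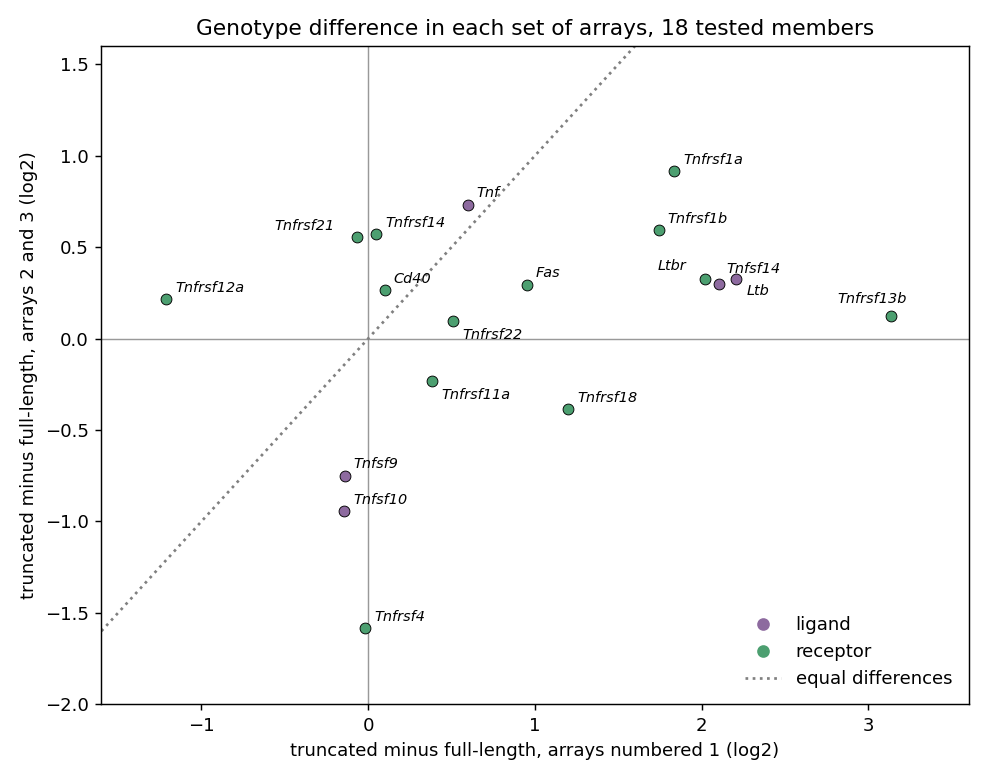
Each point is 1 of the 18 tested members, with the truncated minus full-length difference (log2) in the arrays numbered 1 on the horizontal axis and in arrays 2 and 3 on the vertical axis, purple for ligands and green for receptors. The dotted line marks equal differences. Tnf lies just above the line (0.60 and 0.73), Tnfrsf1a and Tnfrsf1b have positive values on both axes, and Tnfrsf13b lies far to the right but near 0 on the vertical axis (3.14 and 0.12).

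Several members sit next to each other in the mouse genome, and neighbours did not always share their values. Ltb, Tnf and Lta lie side by side on chromosome 17, with differences of 1.58, 0.65 and 0.24. Tnfsf9, Cd70 and Tnfsf14, also adjacent on chromosome 17, differed by -0.37, 0.21 and 1.45. On chromosome 6, Cd27, Ltbr and Tnfrsf1a lie in order with 1 other protein-coding gene between each, and they differed by 0.93, 1.41 and 1.54. In each of these 3 receptors the truncated arrays lay above the full-length arrays, as in 1444 of all 18193 genes. Cd27 was below the filter, and in Ltbr the highest full-length array (7.15) came close to the lowest truncated array (7.37). The part of gene position was not tested. Tnfrsf1b and its direct neighbour Tnfrsf8 on chromosome 4 differed by 1.40 and -0.03.

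The machinery downstream of the receptors was counted from 4 lists, of which 0 genes passed in any. Beside the counts below, 10049 of all 18193 genes were higher and 8144 lower in truncated mice. Of 20 measured adaptor and death signalling genes 10 were higher and 10 lower in truncated mice, with a median difference of -0.06. Mlkl, the executor of necroptosis, had the largest difference of this list at 1.198 (limma adjusted p = 0.257), with all truncated arrays above all full-length arrays, and with 1.76 within the arrays numbered 1 and 0.20 within arrays 2 and 3. The kinase gene Map3k5 differed by 1.12 (limma adjusted p = 0.552), with 1.67 in the former and -0.20 in the latter. The others were the adaptor Traf4 at -0.83 (adjusted p = 0.224), with all truncated arrays below, and the ubiquitin ligase Birc3 at 0.82 (adjusted p = 0.274). Traf4 was at -1.18 and -0.23, and Birc3 at 1.12 and 0.31, in these sets. Of 18 NF-kB kinases, factors and inhibitors 12 were higher and 6 lower, with a median of 0.14. Bcl3 differed by 0.94 (limma adjusted p = 0.316), with 1.72 within the arrays numbered 1 and -0.42 within arrays 2 and 3. Rel, an NF-kB subunit, differed by 0.82 (limma adjusted p = 0.229), and the kinase complex genes Ikbkg and Tab3 by -0.85 (adjusted p = 0.250) and -0.76 (adjusted p = 0.276). The arrays of Rel, Ikbkg and Tab3 did not overlap between genotypes, and their differences within the arrays numbered 1 and within arrays 2 and 3 were 0.88 and 0.54 for Rel, -0.999 and -0.443 for Ikbkg, and -0.83 and -0.38 for Tab3.

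Of the 5 proteases and partners that process ligands, 2 were higher and 3 lower. Adam17, which sheds TNF and both of its receptors, was at 7.58 ± 0.17 and 8.10 ± 0.06, a difference of 0.52 (limma adjusted p = 0.400). Its arrays did not overlap, and the difference was 0.65 within the arrays numbered 1 and 0.48 within arrays 2 and 3. Furin, Adam10 and Rhbdf2 differed by -0.30, -0.18 and -0.14 (limma adjusted p = 0.788, 0.822 and 0.888). Furin turned direction between the sets, with 0.21 within the arrays numbered 1 and -1.32 within arrays 2 and 3, while Adam10 (-0.11 and -0.09) and Rhbdf2 (-0.02 and -0.15) did not. Of 16 measured NF-kB response genes 8 were higher and 8 lower, with a median of -0.02. The adhesion molecule gene Vcam1 differed by 3.74 (limma adjusted p = 0.106) and Gadd45b, a stress response gene, by 2.08 (adjusted p = 0.0820), both without overlap. In the arrays numbered 1 and in arrays 2 and 3 Vcam1 differed by 4.74 and 1.96, and Gadd45b by 2.27 and 1.87. Vcam1 is also in the monocyte and macrophage list. Il1b and Cxcl2, which encode an inflammatory cytokine and a neutrophil chemokine, differed by -1.97 (limma adjusted p = 0.266) and -1.46 (adjusted p = 0.483). Within the arrays numbered 1 and within arrays 2 and 3 the differences were -2.97 and -0.12 for Il1b, and -2.11 and 0.16 for Cxcl2, which turned direction. Il1b was at 8.43 and 8.48 in the full-length arrays numbered 1 and between 5.28 and 5.61 in the other 6.

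Cell type markers differed between the arrays as well, and their part in the values above was not tested. The mean of 12 monocyte and macrophage markers ranged from 5.91 to 6.80 in full-length and from 8.001 to 8.144 in truncated arrays. The mean of 12 neutrophil granule markers was 6.65 and 6.51 in the full-length arrays numbered 1, 9.78 and 9.81 in arrays 2 and 3, and 11.12 to 11.50 in truncated arrays. The mean of 9 erythroid markers was 9.79 and 9.85 in the full-length arrays numbered 1 and between 7.22 and 8.39 in the other 6. The mean of 7 mast cell and basophil markers was 7.32 and 7.28, then 9.73 and 9.77 in full-length arrays, and 7.98 to 8.49 in truncated arrays. T cell markers spanned 4.88 to 5.51 and 5.06 to 5.58, natural killer cell markers 4.16 to 4.62 and 4.11 to 5.28, and 3 genes of each list were below the median of all probe sets on every array. Plasma cell markers spanned 5.68 to 6.10 and 5.65 to 7.49, dendritic cell markers 5.64 to 6.11 and 5.44 to 7.16, megakaryocyte markers 5.20 to 5.56 and 5.77 to 6.03, and stroma markers 4.61 to 5.22 and 4.74 to 4.98. In the truncated mice some lists also stepped between the arrays numbered 1 and arrays 2 and 3. Plasma cell markers were at 5.65 and 5.76, then 7.40 and 7.49, and dendritic cell markers at 5.54 and 5.44, then 7.07 and 7.165. Natural killer cell markers were at 4.11 and 4.12, then 5.24 and 5.28, and B cell markers at 4.82 and 4.68, then 5.37 and 5.47. A few genes moved far more than others of their list. Among plasma cell markers, Jchain went from 3.56 and 3.32 to 10.85 and 10.81, and Derl3 from 5.68 and 5.57 to 5.73 and 5.865. Of the natural killer genes, Gzmb was at 4.83 and 4.39, then 8.14 and 8.13. Prf1 was at 4.58 and 3.95, then 4.28 and 4.43. The dendritic gene H2-Aa rose from 7.76 and 7.05 to 10.88 and 10.97, and Zbtb46 from 4.99 and 5.05 to 5.13 and 5.31. These list means do not stand for all their genes. Leaving out the full-length arrays numbered 1 leaves full-length animal 2 alone, so only differences are given. The truncated means still held all 4 truncated arrays. Tnfrsf1a then differed by 1.26, Tnf by 0.45, Ltbr by 0.44, Tnfrsf13b by 0.34 and Ltb by 0.31. Tnfsf14 was at -0.11 and Tnfrsf18 at -0.60. Among the other tested members the largest differences were -1.925 for Tnfrsf4, -1.37 for Tnfsf10, 1.15 for Tnfrsf14 and 1.12 for Tnfrsf1b.

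**Figure D5:**
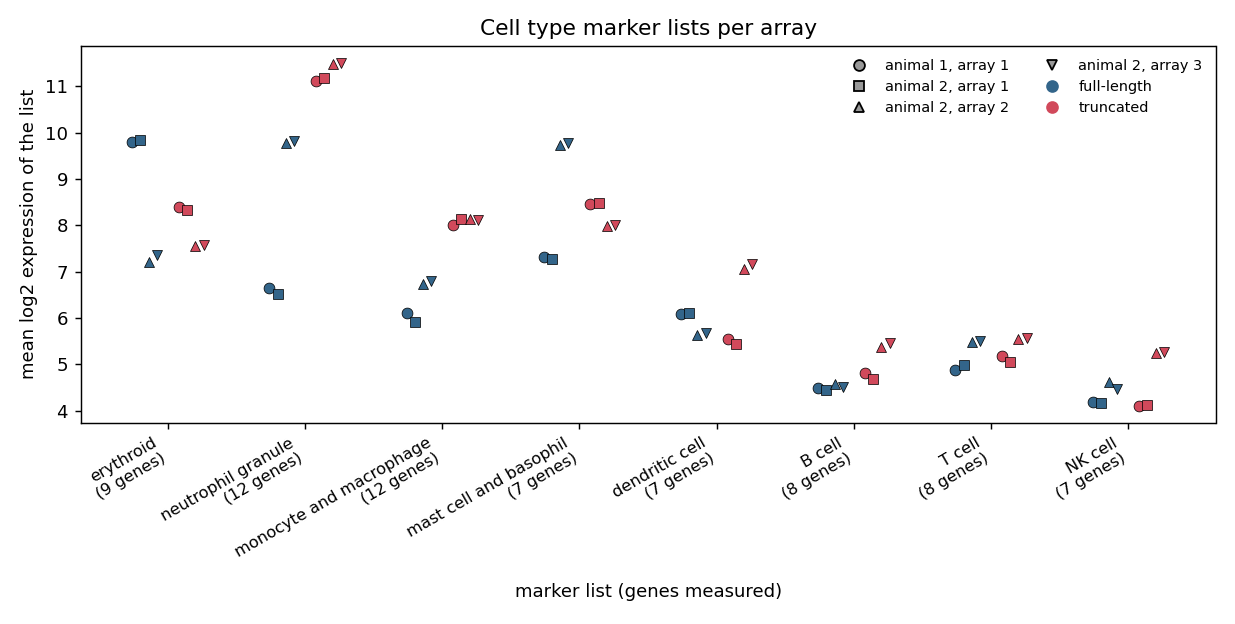
Mean log2 expression of the measured genes of 8 marker lists in each array, with symbols for animal and array number and colours for the genotype. The full-length circle and square (arrays numbered 1) are highest for erythroid markers and lowest for neutrophil granule markers, and the monocyte and macrophage lists of the 4 truncated arrays (8.001 to 8.144) lie above those of the full-length arrays.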

How the data were processed

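Total RNA of leukemic spleen cells was labelled with biotin and read on Affymetrix mouse arrays, per the labels' protocols. The authors deposited log2 values for 45101 probe sets. Per the submitters' processing notes they were made with RMA (version not given). No source used here gives the log base, and base 2 was taken from the values' span of 1.79 to 14.11. RMA draws dim values together, which understates differences of dim genes. Probe sets with 1 gene in the platform annotation were used (34945; 932 with several genes, 9160 with none and 64 controls were left out), and all 35 members were found in the RefSeq gene table.

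Each gene was represented by its brightest probe set. Arrays of an animal were averaged, and a gene was tested if its mean exceeded 4.75, the median of all probe sets, in 2 or more of the 4 animals. The 11417 genes left were compared in limma 3.58.1 under R 4.3.3 by lmFit and eBayes (2 residual and 3.24 prior degrees of freedom, Benjamini-Hochberg adjusted p under 0.05). The fit was tested on simulated data. Same-numbered arrays of the genotypes deviated from their group means together (r = 0.301 for animal 1 and 0.145, 0.230 and 0.214 for arrays 1, 2 and 3 of animal 2), so fits with these numbers as a block are given where they change a call. Numbers did not always match best with themselves. Array 1 of full-length animal 2 matched the array of truncated animal 1 best, and array 3 matched array 2 of truncated animal 2 best. This pairing comes from the data and the shared numbers, and the labels do not say what a number marks.

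All members are named. Array values are given for tested members with a difference of at least 1 log2 unit or no overlap, and up to 4 genes are named per pathway list. The array values of Tnfsf10, Tnfsf13b, Cd27, Tnfrsf4, Tnfrsf12a, Tnfrsf18, Il1b, Cd79a, Cd79b and Bank1 fall outside this rule and were chosen after their values were seen. The same holds for Ms4a1, Jchain, Derl3, Gzmb, Prf1, H2-Aa and Zbtb46. Members and lists were chosen with earlier results of these data known.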

Additional observations from a re-analysis of the deposited data

Results flagged for a closer look

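In Ltbr, the lymphotoxin beta receptor gene, array 1 of truncated animal 2 stood at 8.103, and its gap to the nearest of the other truncated arrays was a larger share of their range than Dixon's critical value for 4 arrays. About 1 in 20 groups shows such a gap by chance.

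In 3 of the 18 tested members, all receptor genes, every array of the truncated mice lay on one side of the full-length arrays within the arrays numbered 1 and on the other side within arrays 2 and 3. The difference between the sets was not tested. How many of all genes tested had such opposite layouts was not counted, so the 3 are no result about the members. Of the 11417 genes tested, the truncated arrays lay above in 3324 within the arrays numbered 1 and in 4003 within arrays 2 and 3. Tnfrsf11a differed by 0.384 in the arrays numbered 1 and by -0.232 in arrays 2 and 3. Tnfrsf12a differed by -1.211 and 0.216, and Tnfrsf18 by 1.200 and -0.387. Tnfrsf10b (0.10 and -0.31) and Tnfrsf8 (-0.18 and 0.09), both below the intensity filter, had such opposite layouts too. A second, dimmer probe set of Tnfrsf11a did not turn direction (0.343 and 0.022), and that of Tnfrsf10b had the reverse signs (-0.090 and 0.160). The second probe set of Tnfrsf12a kept the signs (-1.498 and 0.230).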

How the results depend on the processing

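With animal means, 0 genes had higher and 0 lower values past the threshold in truncated mice, and 0 members passed. With 8 arrays and each animal as a random block, 264 genes were higher, 81 lower and 1 member passed. With the animal number as a replicate block, 226 were higher and 37 lower. With animal and array number as a replicate block on 8 arrays, 590 were higher, 356 lower and 2 members passed. With array number 1 of each animal, 1659 were higher, 1350 lower and 10 members passed, Fas and the lower Tnfrsf12a among them. Requiring all 4 animals above the median left 1 lower gene, and an intensity trend with a robust prior gave 2 higher and 1 lower. Leaving out an animal or an array gave 0 to 448 higher genes, 0 to 218 lower genes and 0 to 5 members, the most without full-length animal 2, where Ltb (2.05), Ltbr (2.01), Tnfrsf13b (2.97), Tnfrsf18 (1.49) and Tnfsf14 (2.15) passed. That setting leaves 1 full-length array, which is assumed to vary like the truncated animals. Without full-length animal 1, the mirror of it, these 5 were at 1.108, 0.809, 1.152, 0.058 and 0.751, and none passed. The cause of these changes was not tested.

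Of 374 member differences over 21 alternatives, 15 turned direction, in 8 members. Without the full-length arrays numbered 1, which are those with the highest erythroid markers, Tnfrsf11a was -0.101, Tnfrsf12a 0.093, Tnfrsf18 -0.599 and Tnfsf14 -0.106. With each array centred on its median, Tnfrsf14 was -0.008, and with array number 1 of each animal, Tnfrsf21 was -0.065. Leaving out animals or arrays gave -0.032 to 0.372 for Tnfrsf11a, -0.701 to 0.765 for Tnfrsf14, -0.135 to 0.349 for Tnfrsf21, -1.311 to 0.283 for Tnfrsf4 and -0.953 to 0.127 for Tnfsf10. The other 10 tested members kept their direction in each alternative in which they could be fitted. An alternative added after seeing the data, with the arrays numbered 1 as 1 unit and arrays 2 and 3 as the other, called 0 genes. The 17 members below the filter have a signal near background, which limits what their values can show.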
